A study of Homo sapiens with 4 samples.

Results

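Eicosanoids are lipid mediators made from arachidonic acid, a polyunsaturated fatty acid that phospholipases free from membranes. Lipoxygenases turn it into hydroperoxy acids and leukotrienes, and cyclooxygenases turn it into the precursor of prostaglandins and thromboxane. Monocytes and other myeloid cells are known for leukotriene and prostaglandin synthesis, whereas the lipoxygenase encoded by ALOX12 is best known from platelets. Described here are ALOX12 and 9 other genes of these routes (ALOX15, ALOX5, ALOX5AP, LTA4H, LTC4S, PLA2G4A, PTGS1, PTGS2 and TBXAS1), taken as the probe sets that carry the gene's symbol, with the brightest one kept for each gene. The set was chosen by the difference in log2 signal between the lines compared below, so those differences are given as a description. Of the 10 genes 9 were measured, each on 1 probe set, among 18417 genes in all. LTC4S, the leukotriene C4 synthase, is named only on 2 probe sets that are annotated to MAML1 as well, so no value is given for it.

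RNA from MV4-11R was compared with RNA from MV4-11. Both are human acute myeloid leukaemia lines, and MV4-11 is known for an MLL fusion and an activating tandem duplication in FLT3, a receptor kinase. MV4-11R is labelled drug-resistant with low EZH2 expression and was grown out of MV4-11 over 3 months under rising doses of the tyrosine kinase inhibitor PKC412 (midostaurin), while MV4-11 is labelled drug-sensitive with high EZH2 expression. There were 2 Affymetrix arrays of MV4-11R and 2 of MV4-11. The labels do not say whether MV4-11R is a clone or a pool, whether PKC412 was present at harvest, or whether replicates came from separate cultures, so the spread between arrays may be technical.

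Signal is given on the log2 scale of the deposited values, and a difference is MV4-11R minus MV4-11 in log2 units. Median signal lay between 6.75 and 6.78 on the 4 arrays, and across genes the arrays of a line correlated at r = 0.993 for MV4-11R and 0.994 for MV4-11, against 0.968 to 0.974 between lines. As a rough guide to background, 95% of 341 olfactory receptor genes lay under a signal of 6.26. EZH2 itself read 9.90 and 9.29 on the MV4-11R arrays, against 9.75 and 9.74 on the MV4-11 arrays, a difference of -0.14 (SE 0.20, 95% interval -0.64 to 0.35) that did not pass limma's test (adjusted p = 0.734). The arrays read RNA and give no level of EZH2 protein. As to myeloid identity, the transcription factor SPI1 stood at 11.40 ± 0.09 in MV4-11R and 11.44 ± 0.10 in MV4-11 (SD, n = 2 each), and none of 10 measured myeloid and monocyte markers lay under the guide on all 4 arrays. The monocyte marker CD14 read 7.24 and 6.49 in MV4-11R, against 6.05 and 6.13 in MV4-11, under the guide in MV4-11. Within that list 3 fell in MV4-11R, namely CSF1R (-1.73, adjusted p = 0.00939), PTPRC (-0.81, adjusted p = 0.0207) and LYZ (-0.69, adjusted p = 0.0192), and 0 rose, beside 7.13% of all genes that fell and 7.92% that rose. The median difference of the list was -0.05, and CTSG (1.10, adjusted p = 0.201), CD14 (0.77, adjusted p = 0.0855), MPO (0.47, adjusted p = 0.216) and ELANE (0.44, adjusted p = 0.0721), not called, had higher means in MV4-11R. CD14, CTSG, MPO and ELANE were chosen after their values were seen. The LYZ call was lost without MV4-11R replicate 2 (adjusted p = 0.0542) or MV4-11 replicate 2 (0.078), and that on PTPRC without MV4-11R replicate 1 (0.0521), MV4-11 replicate 1 (0.0553) or MV4-11 replicate 2 (0.0647).

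The start regions of the pair of genes with the largest differences are shown because they belong to the one enzyme that was higher by far and the one that was lowest relative to MV4-11. Each window runs from 250 bases before to 50 bases after the RefSeq start (GRCh38.p14, plus strand, 5′ to 3′), at chr17:6995799-6996098 for ALOX12 and chr7:139829014-139829313 for TBXAS1. Capitals in the first mark GGGCGG, the GC box bound by SP1-type factors, and in the second a longer NF-E2 motif and GAGGAAGT, a PU.1 motif, on either strand.
ALOX12: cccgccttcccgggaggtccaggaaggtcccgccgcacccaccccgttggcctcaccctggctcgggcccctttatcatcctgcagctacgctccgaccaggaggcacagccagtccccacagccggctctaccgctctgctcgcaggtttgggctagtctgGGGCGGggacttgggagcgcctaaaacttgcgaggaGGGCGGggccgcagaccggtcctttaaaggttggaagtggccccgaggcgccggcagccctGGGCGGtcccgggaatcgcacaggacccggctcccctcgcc
TBXAS1: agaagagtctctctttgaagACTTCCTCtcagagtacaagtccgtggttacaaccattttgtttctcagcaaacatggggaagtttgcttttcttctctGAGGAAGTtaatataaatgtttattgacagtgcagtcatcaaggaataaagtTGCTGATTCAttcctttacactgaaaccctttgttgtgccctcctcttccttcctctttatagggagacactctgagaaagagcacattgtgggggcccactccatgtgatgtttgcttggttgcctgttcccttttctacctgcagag

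The windows differ in base composition. The ALOX12 window is 70.0% G and C with 25 CG dinucleotides, and 32.0% of 35116 RefSeq windows of that length hold as many or more. The TBXAS1 window is 43.0% G and C with 1 CG dinucleotide, a number that 96.0% of windows reach. Motifs were searched on both strands and were picked with the sequences in view. The GC box is found 3 times in the ALOX12 window and at least 1 time in 45.0% of all windows. The LTC4S and PTGS1 windows hold it as well. The NF-E2 motif is found 1 time in the TBXAS1 window, at its bases 152 to 161, and in 0.416% of all windows. The PU.1 motif is found 2 times there, once on each strand, and at least 1 time in 2.59% of all windows. The ALOX5AP window also holds 2. RefSeq windows were at hand for 8 of the 10 genes. No match in this search overlaps another, and a match describes letters, not a bound site.

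Among the lipoxygenases, ALOX12 was far higher in the resistant line while its relatives were not. ALOX12 (Entrez gene 239, chromosome 17) encodes the 12-lipoxygenase of platelets, which adds oxygen at carbon 12 of arachidonic acid. Its signal was 9.84 and 9.71 on the MV4-11R arrays, against 5.98 and 5.92 on the MV4-11 arrays. Both MV4-11R arrays thus lay above both MV4-11 arrays, and MV4-11 read under the background guide. The mean signal was 9.77 ± 0.09 in MV4-11R and 5.95 ± 0.04 in MV4-11 (SD, n = 2 each), a difference of 3.82 (SE 0.11), or 14.2-fold. With any 1 array left out the difference was between 3.76 and 3.89. Because MV4-11 was near background, where RMA compresses differences, the fold is not exact. In bulk RNA, more cells with a transcript and more of it per cell cannot be told apart.

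ALOX15 (Entrez gene 246), the 15-lipoxygenase of eosinophils and alternatively activated macrophages, lies on chromosome 17 too. It read 6.07 and 5.73 in MV4-11R, against 5.87 and 5.60 in MV4-11, so the lines overlapped and all 4 arrays lay under the guide. The other lipoxygenase genes of chromosome 17 are ALOX12B and ALOXE3, known from skin, and ALOX15B. Of these 3 genes 0 rose and 0 fell by limma's test, with a median difference of 0.08. The one furthest from 0, ALOX12B, read 6.39 and 6.43 in MV4-11R, against 6.30 and 6.27 in MV4-11, a difference of 0.13 (SE 0.10, adjusted p = 0.525).

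**Figure D1:**
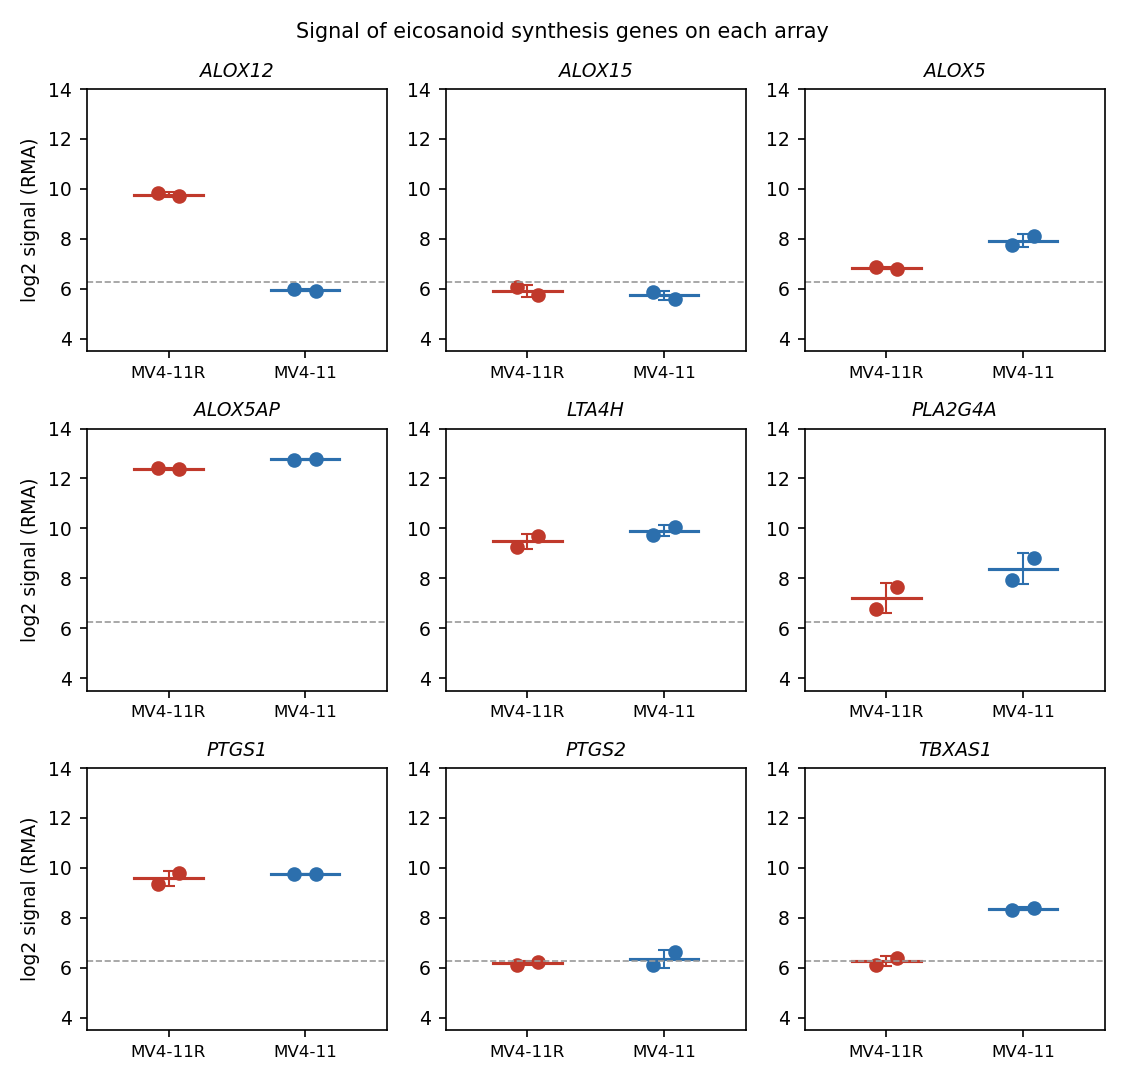
Log2 signal (RMA) of the 9 measured synthesis genes on each array, MV4-11R in red and MV4-11 in blue, with lines at the mean, bars of 1 SD (n = 2 each) and a dashed line at the background guide of 6.26. ALOX12 is higher in MV4-11R at 9.84 and 9.71, and TBXAS1 is lower at 6.13 and 6.40, close to the guide.

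None of the genes measured around ALOX12 showed a difference of its size, though several of them read under the guide. Of the 10 nearest genes with a probe set of their own, 5 on each side, 0 rose and 0 fell, beside 15.1% of all genes called. Their median difference was 0.03. TEKT1, ALOX12P2, MIR195 and CLEC10A had means under the guide in both lines. The pseudogene ALOX12P2, a partial copy next to it, read 5.61 and 5.51 in MV4-11R, against 5.71 and 5.54 in MV4-11. The neighbour furthest from 0 was the interferon-responsive XAF1, at 11.45 and 10.55 in MV4-11R and 10.21 and 9.72 in MV4-11 (difference 1.04, SE 0.31, adjusted p = 0.0799). For SLC13A5, FBXO39, TEKT1, MIR195, BCL6B, CLEC10A, ASGR2 and ASGR1 the difference was between -0.04 and 0.12. With the median difference of 60 brighter neighbours (0.12) taken off, the ALOX12 difference was 3.71.

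ALOX12 and TBXAS1 are both platelet genes, so platelet and megakaryocyte markers were set beside them. Of 13 measured markers 8 lay under the guide on all 4 arrays, and the mean signal of the list was 6.08 and 6.09 in MV4-11R, against at most 6.04 in MV4-11. Without THBS1 the other 12 averaged 5.94 and 5.89 in MV4-11R, against 6.05 and 6.01 in MV4-11, and the median difference of the 13 was -0.02. The platelet chemokine PF4 read 5.74 and 5.63 in MV4-11R, against 5.66 and 5.58 in MV4-11, and its relative PPBP 5.18 and 4.94 in MV4-11R, against 5.03 and 5.23 in MV4-11. The collagen receptor GP6 read 7.09 on both MV4-11R arrays, against 7.28 and 7.15 on the MV4-11 arrays. PF4 and PPBP were chosen after their values were seen, as proteins that define platelets. In this list THBS1, a matrix protein that monocytes make as well, rose (2.18, SE 0.23, adjusted p = 0.00386) and the integrin ITGA2B fell (-0.67, SE 0.13, adjusted p = 0.0230). The ITGA2B call was lost without MV4-11R replicate 1 (adjusted p = 0.0779), MV4-11 replicate 1 (0.0903) or MV4-11 replicate 2 (0.0579). The part of such cells in the ALOX12 and TBXAS1 differences was not tested.

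Of 38 measured markers of other cells 4 were called, or 10.5%, beside 15.1% of all genes. Of 9 measured markers of eosinophils, basophils and mast cells 0 rose and 0 fell, with PRG2 at a mean of 7.78 in MV4-11R and 7.88 in MV4-11 and GATA1 at 6.80 in MV4-11R and 6.88 in MV4-11. Of 5 erythroid markers, TFRC and EPOR being the brightest, 0 rose and 0 fell. Of 5 B cell markers PAX5 rose (0.80, adjusted p = 0.0274) and CD79B fell (-1.09, adjusted p = 0.00899), and of 8 T and NK cell markers, CD8A among the brightest, NKG7 rose (0.94, adjusted p = 0.00518). Of 11 markers of epithelial cells, keratinocytes and fibroblasts, KRT8 among the brightest, KRT18 fell (-0.58, adjusted p = 0.0283) and 0 rose. Leaving out 1 array ended the calls on PAX5 (adjusted p of 0.0619 without MV4-11R replicate 1, 0.0708 without MV4-11 replicate 1 and 0.0773 without MV4-11 replicate 2) and KRT18 (0.0872 without MV4-11R replicate 2, 0.123 without MV4-11 replicate 1 and 0.0647 without MV4-11 replicate 2).

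**Figure D2:**
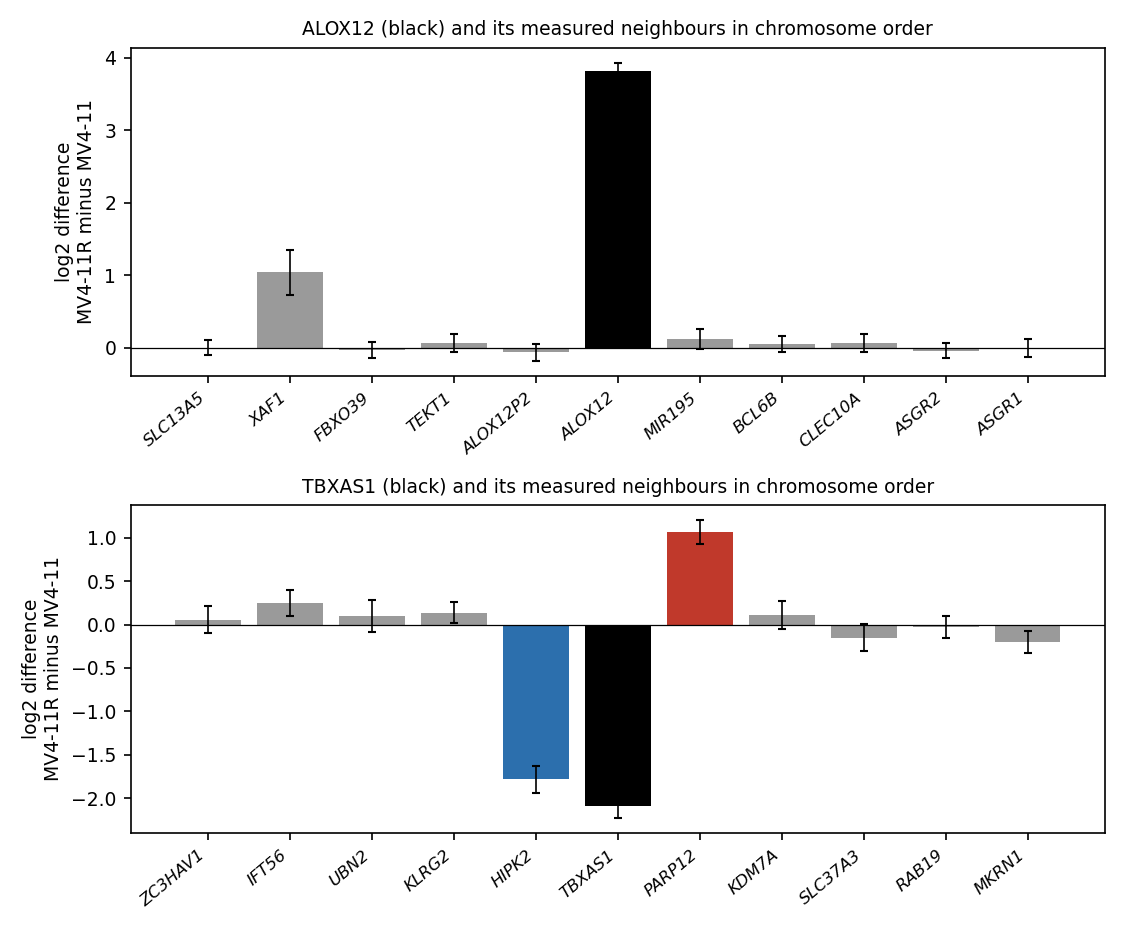
Log2 difference, MV4-11R minus MV4-11, of ALOX12 and of TBXAS1 (black) and of 5 measured genes on each side in chromosome order, with bars of 1 SE. Grey bars did not pass limma's test, red rose and blue fell. ALOX12 at 3.82 stands beside neighbours with a median of 0.03, while HIPK2, next to TBXAS1, fell as well.

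In the leukotriene branch the 3 measured genes had lower means in the resistant line, to unequal extents. ALOX5 (Entrez gene 240, chromosome 10) encodes 5-lipoxygenase, the first enzyme of leukotriene synthesis. Its signal was 6.85 and 6.80 in MV4-11R, against 7.74 and 8.11 in MV4-11, with no overlap. The mean was 6.83 ± 0.04 in MV4-11R and 7.93 ± 0.26 in MV4-11 (SD, n = 2 each), a difference of -1.10 (SE 0.15), or 2.14-fold lower. Of its 10 nearest measured neighbours 0 fell and 2 rose, beside 7.13% of all genes that fell and 7.92% that rose. Those that rose were ZNF22-AS1 (0.84, adjusted p = 0.0370) and TIMM23 (0.70, adjusted p = 0.0122), both named after their values were seen. The mean of TIMM23 lay under the guide in both lines, and that of ZNF22-AS1 in MV4-11.

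ALOX5AP (Entrez gene 241, chromosome 13), whose product FLAP presents arachidonic acid to 5-lipoxygenase, stayed bright in both lines. It read 12.41 and 12.38 in MV4-11R, against 12.74 and 12.78 in MV4-11. The arrays did not overlap, and the difference of -0.37 (SE 0.10) was small beside that of ALOX5. Of the 10 genes nearest to ALOX5AP 0 rose and 1 fell, beside 15.1% of all genes called, and their median difference was -0.19. The one that fell was KATNAL1 (-1.24, SE 0.20, adjusted p = 0.0137, or 0.0541 with every probe set tested on its own). The other 9 were SLC7A1, UBL3, LINC00544, USPL1, MEDAG, TEX26, HSPH1, B3GLCT and RXFP2, with differences from -0.55 for UBL3 to 0.40 for HSPH1.

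LTA4H (Entrez gene 4048, chromosome 12), the hydrolase that makes leukotriene B4, read 9.27 and 9.68 in MV4-11R, against 9.74 and 10.06 in MV4-11. The higher MV4-11R array lay just under the lower MV4-11 array, and the difference was -0.43 (SE 0.18), or between -0.63 and -0.22 with 1 array left out (nearest to 0 when MV4-11R replicate 1 was the one left out). Upstream of both branches, PLA2G4A (Entrez gene 5321, chromosome 1), the cytosolic phospholipase A2 that frees arachidonic acid, read 6.78 and 7.64 in MV4-11R, against 7.94 and 8.81 in MV4-11. The arrays did not overlap, but each line spread widely. The mean was 7.21 ± 0.61 in MV4-11R and 8.38 ± 0.62 in MV4-11 (SD, n = 2 each), a difference of -1.17 (SE 0.37), and between -1.60 and -0.73 with 1 array left out. Replicate 2 was higher than replicate 1 by 0.87 in both lines for PLA2G4A, and by 0.42 in MV4-11R and 0.32 in MV4-11 for LTA4H.

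In the prostanoid branch thromboxane synthase differed and the cyclooxygenases did not separate the lines. TBXAS1 (Entrez gene 6916, chromosome 7) encodes thromboxane synthase, a cytochrome P450 of platelets and macrophages. Its signal was 6.13 and 6.40 in MV4-11R, against 8.32 and 8.40 in MV4-11, with no overlap and with MV4-11R at the background guide. The mean was 6.26 ± 0.19 in MV4-11R and 8.36 ± 0.05 in MV4-11 (SD, n = 2 each), a difference of -2.10 (SE 0.13), or 4.28-fold lower, which is not exact because MV4-11R was near background. Of its 10 nearest measured neighbours 1 rose and 1 fell, beside 15.1% of all genes called. The one that fell was the adjacent HIPK2, a nuclear kinase, at 7.75 and 8.12 in MV4-11R and 9.62 and 9.82 in MV4-11 (difference -1.78, SE 0.16, adjusted p = 0.00243). PARP12, on the other side, rose (1.07, SE 0.14, adjusted p = 0.00721). HIPK2 and PARP12 were chosen after their values were seen.

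PTGS1 (Entrez gene 5742, chromosome 9), the constitutive cyclooxygenase COX-1, read 9.37 and 9.80 in MV4-11R, against 9.76 and 9.74 in MV4-11. The MV4-11R arrays lay on either side of MV4-11, and the difference of -0.16 (SE 0.16) had a 95% interval from -0.56 to 0.23. PTGS2 (Entrez gene 5743, chromosome 1), the inducible cyclooxygenase COX-2, read 6.12 and 6.24 in MV4-11R, against 6.10 and 6.62 in MV4-11. These arrays overlapped near the guide, with a difference of -0.18 (SE 0.18) and a 95% interval from -0.63 to 0.27.

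Over the 9 measured genes the mean was lower in MV4-11R for 7 and higher for 2, with a median difference of -0.37, beside 0.01 over all genes tested. The arrays of the lines did not overlap for 6 of the 9 genes, beside 55.6% of all genes. By limma's test at an adjusted p under 0.05, ALOX12 was called higher and ALOX5 and TBXAS1 lower, beside 15.1% of all genes called, 7.92% higher and 7.13% lower. Since these genes were chosen with this contrast known, the counts are a description and no test of the group is given.

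Other genes of the pathway, outside the 10, were tested across all genes. Of 103 listed genes 90 were measured, of which 7 rose, 11 fell and 72 did not pass limma's test. That share is 20.0% of the 90, against 15.1% of all genes, and the median difference was -0.04. When every probe set of the table was tested on its own, 5 of the 18 calls remained, on MGLL, ACSL1, ABCC4, PTGER2 and FPR2. With 1 array left out the count of 18 became lower in most fits and higher without MV4-11R replicate 2. The count over all genes became lower in each of these fits.

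**Figure D3:**
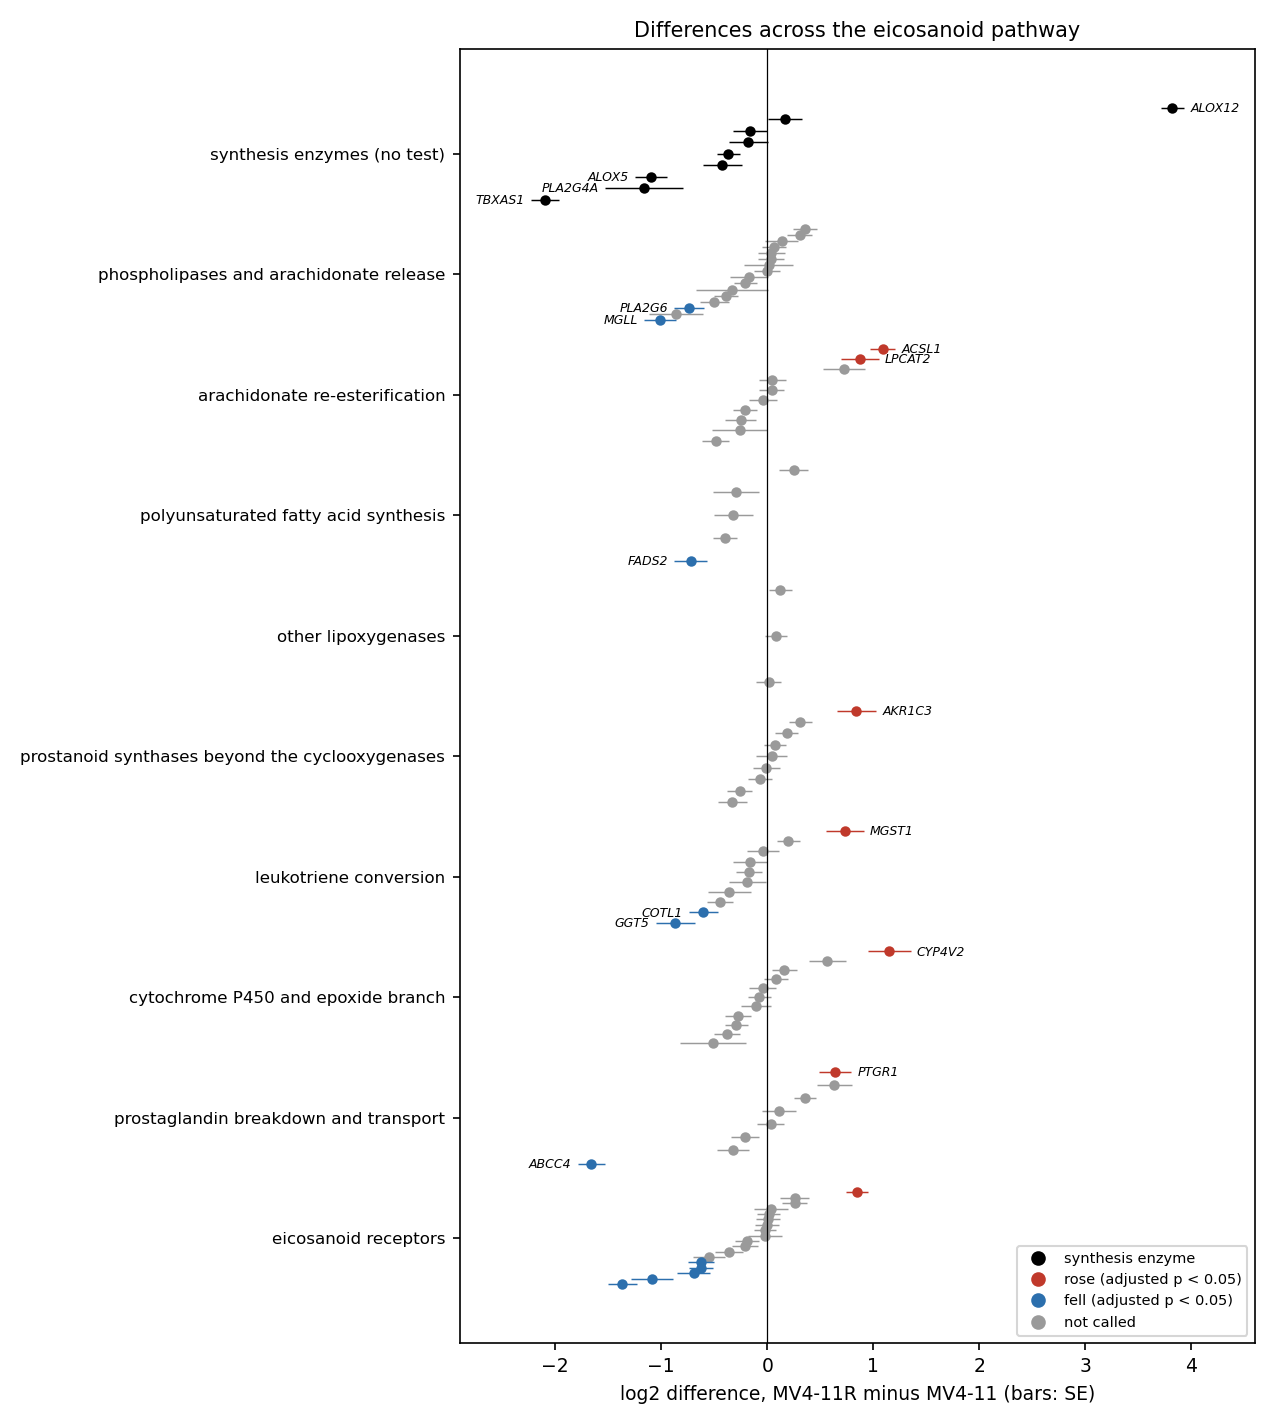
Log2 difference, MV4-11R minus MV4-11, of each measured gene with bars of 1 SE, for the 9 synthesis enzymes (black, no test) and for the 90 other pathway genes by list. Red genes rose and blue fell by limma's test, and grey did not pass; names are given for genes that passed, except receptors, and for synthesis enzymes beyond 1 log2 unit. The rises and falls are spread over the lists, with ALOX12 at 3.82 apart from the rest.

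At the supply end, 12.5% of the genes of arachidonic acid release and 20.0% of those that return it to phospholipids were called, beside 15.1% of all genes. Of 16 measured phospholipases and related genes 0 rose, 2 fell and 14 were not called, with a median difference of -0.09. MGLL, the monoacylglycerol lipase that frees arachidonic acid from an endocannabinoid, read 6.77 and 6.75 in MV4-11R, against 7.97 and 7.58 in MV4-11 (difference -1.01, SE 0.15, adjusted p = 0.0110). PLA2G6, a calcium-independent phospholipase A2, read 7.61 and 7.72 in MV4-11R, against 8.23 and 8.56 in MV4-11 (difference -0.74, SE 0.14, adjusted p = 0.0230). Among the 10 measured for re-esterification 2 rose, 0 fell and 8 were not called, with a median difference of 0.00. ACSL1, a long-chain acyl-CoA synthetase, read 10.92 and 10.79 in MV4-11R, against 9.84 and 9.69 in MV4-11 (difference 1.09, SE 0.12, adjusted p = 0.00412). LPCAT2, which acylates lysophospholipids and makes platelet-activating factor, read 11.20 and 11.62 in MV4-11R, against 10.39 and 10.68 in MV4-11 (difference 0.87, SE 0.18, adjusted p = 0.0268). The arrays of the lines did not overlap for any of these 4 genes, nor for 55.6% of all genes. Since the 4 were named for calls on the same arrays, this adds no support. Of 5 genes that make polyunsaturated fatty acids 1 fell, the desaturase FADS2, with 11.38 and 11.77 in MV4-11R, against 12.33 and 12.27 in MV4-11 (difference -0.72, SE 0.15, adjusted p = 0.0298).

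With 1 array left out, a line has 1 array and the SE often widens. A lost call therefore does not by itself show that it rested on that array. Without MV4-11 replicate 2, for instance, the FADS2 difference was -0.75, with an SE of 0.20 in place of 0.15. MGLL and ACSL1 passed with any 1 array left out. The PLA2G6 call was lost without MV4-11R replicate 1 (adjusted p = 0.0768) or MV4-11 replicate 2 (0.0801), that on LPCAT2 without MV4-11R replicate 2 (0.0595) or MV4-11 replicate 1 (0.0903), and that on FADS2 without MV4-11R replicate 1 (0.0784), MV4-11 replicate 1 (0.0953) or MV4-11 replicate 2 (0.0727).

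Past the first oxygenation, 1 of 9 prostanoid synthases (11.1%) and 3 of 10 leukotriene conversion genes were called, beside 15.1% of all genes. Of 9 prostanoid synthases 1 rose, AKR1C3, a prostaglandin F synthase, with 5.82 and 5.77 in MV4-11R, against 5.22 and 4.69 in MV4-11 (difference 0.84, SE 0.19, adjusted p = 0.0333). Both lines lay under the guide for AKR1C3. The prostaglandin E synthase PTGES read 7.06 and 6.71 in MV4-11R, against 6.85 on both MV4-11 arrays, and was chosen after its values were seen. Of 10 genes of leukotriene conversion 1 rose, 2 fell and 7 did not pass. MGST1, a microsomal glutathione transferase, rose (0.73, SE 0.18, adjusted p = 0.0446), while GGT5, which turns leukotriene C4 into D4, fell (-0.87, SE 0.19, adjusted p = 0.0311), as did COTL1, a binding partner of 5-lipoxygenase (-0.60, SE 0.13, adjusted p = 0.0339). MGST1 read 10.03 and 10.42 in MV4-11R, against 9.33 and 9.65 in MV4-11, and GGT5 8.65 and 9.12 in MV4-11R, against 9.61 and 9.88 in MV4-11.

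In fits with 1 array left out, where the SE is often wider, each of these 4 calls was lost without at least 1 array. For AKR1C3 these were MV4-11R replicate 1 (adjusted p = 0.0951), MV4-11R replicate 2 (0.0664) and MV4-11 replicate 2 (0.0746). For MGST1 they were MV4-11R replicate 2 (0.118) and MV4-11 replicate 1 (0.154), and for GGT5 MV4-11R replicate 1 (0.0782) and MV4-11 replicate 2 (0.0991). For COTL1 they were MV4-11R replicate 1 (0.119), MV4-11 replicate 1 (0.0662) and MV4-11 replicate 2 (0.129).

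Of 11 cytochrome P450 and epoxide hydrolase genes 1 rose (9.09% called), CYP4V2, a fatty acid omega-hydroxylase. It read 9.62 and 9.03 in MV4-11R, against 8.20 and 8.15 in MV4-11 (difference 1.15, SE 0.20, adjusted p = 0.0165), and passed with any 1 array left out. Of 8 genes of prostaglandin breakdown and transport 1 rose, 1 fell and 6 did not pass. PTGR1, a reductase that inactivates prostaglandins and leukotriene B4, read 6.65 and 6.95 in MV4-11R, against 6.03 and 6.29 in MV4-11 (difference 0.64, SE 0.15, adjusted p = 0.0434). The PTGR1 mean in MV4-11 lay under the guide. ABCC4, a transporter that exports prostaglandins, read 7.90 on both MV4-11R arrays, against 9.43 and 9.69 in MV4-11 (difference -1.66, SE 0.13, adjusted p = 0.00169). ABCC4 lies on chromosome 13 among genes with a median difference of -0.99, and with that taken off its difference was -0.67 (SE 0.13, adjusted p = 0.0216). The PTGR1 call was lost without MV4-11R replicate 2 (0.125), MV4-11 replicate 1 (0.164) or MV4-11 replicate 2 (0.0532), and with quantile normalization (0.0507).

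Among receptors for the products, PTGER2 and CYSLTR1 had the largest falls. Of 18 measured receptors 1 rose, 5 fell and 12 were not called, beside 7.92% of all genes that rose and 7.13% that fell, with a median difference of -0.11, and 9 of the 18 lay under the guide on all 4 arrays. PTGER2, a prostaglandin E2 receptor that raises cyclic AMP, read 7.07 and 6.95 in MV4-11R, against 8.52 and 8.22 in MV4-11 (difference -1.37, SE 0.14, adjusted p = 0.00358). CYSLTR1, a cysteinyl leukotriene receptor, read 8.85 and 9.43 in MV4-11R, against 10.21 and 10.25 in MV4-11 (difference -1.09, SE 0.20, adjusted p = 0.0181). With any 1 array left out the difference was between -1.52 and -1.22 for PTGER2 and between -1.38 and -0.80 for CYSLTR1. The arrays did not overlap for either, nor for 55.6% of all genes, which adds no support to calls on the same arrays.

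Further receptors fell with smaller differences, of which PTGER4 and PTGIR were chosen after their values were seen. PTGER4, another prostaglandin E2 receptor, read 10.26 and 10.36 in MV4-11R, against 10.99 and 10.88 in MV4-11 (difference -0.63, SE 0.11, adjusted p = 0.0176). PTGIR, the prostacyclin receptor, read 7.36 and 7.59 in MV4-11R, against 8.07 and 8.13 in MV4-11 (difference -0.63, SE 0.13, adjusted p = 0.0251). CYSLTR2, the second cysteinyl leukotriene receptor, averaged 4.81 ± 0.27 in MV4-11R and 5.50 ± 0.08 in MV4-11 (SD, n = 2 each, difference -0.69, SE 0.15, adjusted p = 0.0342), all under the guide. CYSLTR2 lies on chromosome 13 among genes with a median difference of -0.98, and with that taken off its sign turned, to 0.29 (SE 0.15, adjusted p = 0.270). The oxoglutarate receptor gene OXGR1, also on chromosome 13, was chosen after its values were seen. It read 5.35 and 5.22 in MV4-11R, against 5.33 and 5.24 in MV4-11, all under the guide. Its difference was 0.00 (adjusted p = 0.998). With the shift of -1.05 there taken off it became 1.05 by the subtraction itself, which is not read as a rise. The call was lost without 1 array for PTGER4 (adjusted p = 0.0652 without MV4-11R replicate 1 and 0.0814 without MV4-11 replicate 1), for PTGIR (0.0872 without MV4-11R replicate 1, 0.0733 without MV4-11 replicate 1 and 0.0916 without MV4-11 replicate 2) and for CYSLTR2 (0.0965, 0.0751 and 0.110 without those same arrays).

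**Figure D4:**
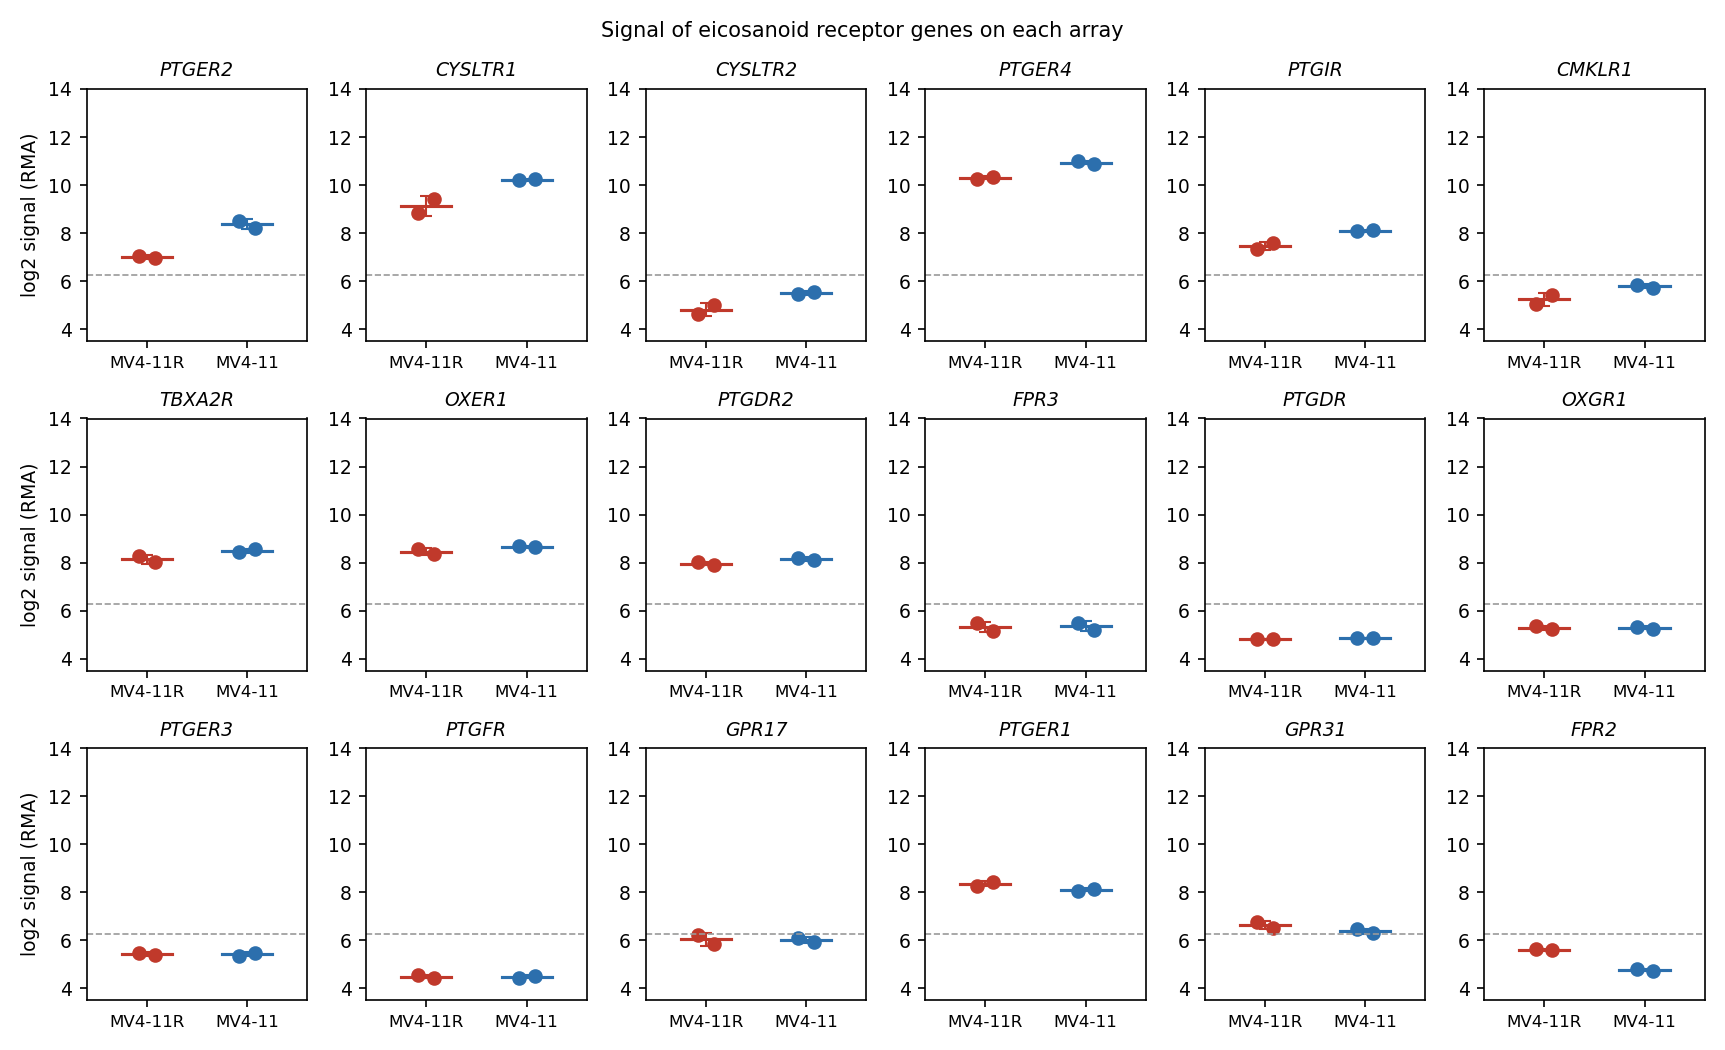
Log2 signal (RMA) of 18 eicosanoid receptor genes on each array, MV4-11R in red and MV4-11 in blue, ordered by difference, with lines at the mean, bars of 1 SD (n = 2 each) and a dashed line at the background guide of 6.26. PTGER2, CYSLTR1, PTGER4 and PTGIR are lower in MV4-11R and above the guide, while CYSLTR2 and FPR2 lie under it.

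FPR2, a receptor for lipoxin A4 and for formyl peptides, rose, with 5.62 and 5.59 in MV4-11R, against 4.79 and 4.72 in MV4-11 (difference 0.85, SE 0.11, adjusted p = 0.00634), though every array lay under the guide. GPR31, a receptor for the ALOX12 product 12-HETE, read 6.76 and 6.50 in MV4-11R, against 6.44 and 6.29 in MV4-11 (difference 0.26, SE 0.13, adjusted p = 0.282). The thromboxane receptor TBXA2R read 8.26 and 8.01 in MV4-11R, against 8.44 and 8.56 in MV4-11 (difference -0.36, SE 0.13, adjusted p = 0.129). With the median difference of its neighbours on chromosome 19 (0.21) taken off, TBXA2R differed by -0.57 (SE 0.13, adjusted p = 0.0385). TBXA2R passed there by the subtraction itself, with the SE unchanged, which is not read as a fall. GPR31 and TBXA2R were chosen after their values were seen, as the receptors of the products of ALOX12 and TBXAS1.

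By Euclidean distance between profiles over the 4 arrays, each gene centred on its own mean, the genes most like ALOX12 were ZNF506 (distance 0.18 log2 units), GLB1L2 (0.56), MEST (0.60), BCL2L10 (0.68), the linker histone gene H1-1 (0.71) and BNIP3 (0.73). ZNF506, a zinc finger gene of chromosome 19, read 9.91 and 10.01 in MV4-11R, against 6.27 and 6.11 in MV4-11. The 6 genes lie on chromosomes 19, 11, 7, 15, 6 and 10, none of them that of ALOX12. All 6 had means under the guide in MV4-11. With 2 similar arrays per line, the distance mostly ranks genes by how near their difference comes to that of ALOX12. Shared regulation was not tested.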

How the data were processed

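The authors deposited 1 log2 value for each probe set on each array. Per the submitters' processing notes these are RMA values from the program Affymetrix Expression Console. Versions, genome build and detection calls are not given in the sources used here. The log2 scale was read from the values. RMA compresses differences of dim genes. Of 33297 probe sets 19460 were paired with 1 gene; those of several genes (1754) or unlisted (12083) were left out. Symbols came from RefSeq by Entrez ID, with 31 IDs unmatched. The brightest probe set per gene was kept, with no filter on level.

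Genes were tested with limma 3.58.1 (lmFit, eBayes) under R 4.3.3. Tests were 2-sided, p-values were adjusted by Benjamini-Hochberg across the 18417 genes, and genes were called at an adjusted p under 0.05. "Rose" and "fell" mean such a call, SE is moderated, and fold is 2 to the power of the difference. The fit had 2 residual degrees of freedom (6.06 with the prior). It was also run on simulated data with independent noise, a run that does not cover replicates that may be technical. Genes around a member are those nearest by RefSeq order. The members, lists and tests were chosen with earlier results of these data known. Genes named are the members, up to 3 rises and 3 falls per pathway list (or the largest difference), 5 neighbours on each side of ALOX12 and ALOX5AP, 6 genes most like ALOX12, the 2 brightest and the called genes of each marker list, and EZH2. Arrays give no molecule counts, and their number limits the precision. Alternatives covered normalization, a level filter, probe set choice, the variance prior, a replicate block, each array left out and regional shifts.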

Additional observations from a re-analysis of the deposited data

How the results depend on the processing

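Of the 18417 genes 2772 were called, a count that ran from 1588 to 2479 with 1 array left out. With every probe set tested on its own 1505 calls were made. These are calls on probe sets, among all 33297, and not on genes, so 1505 and 2772 cannot be compared directly. For the 90 other pathway genes the count of 18 was 5 with every probe set tested on its own and ran from 10 to 20 with 1 array left out. Of the 9 measured eicosanoid synthesis genes 3 were called, beside 15.1% of all genes. With a variance prior that follows signal level 4 were called, ALOX5AP being added, beside 2858 of all genes. With the replicate block 5 were called, LTA4H and PLA2G4A being added, beside 3642 of all genes. These counts are a description, since these genes were chosen with this contrast known. The CYSLTR2 difference of -0.69 became 0.29 with the regional shift removed, by the subtraction itself.

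Replicate numbers are shared between lines, but the labels tie them to no culture or day, so the fit had no block. Deviations of same-numbered arrays from their line's mean correlated at 0.26 across genes. With the replicate block 3642 genes were called, among them 25 of the other pathway genes. For LTA4H and PLA2G4A replicate 2 was higher in both lines. The block took the SE from 0.18 to 0.10 for LTA4H and from 0.37 to 0.10 for PLA2G4A. ALOX12, ALOX5 and TBXAS1 kept their direction under the 13 alternatives, with ALOX12 between 3.71 and 3.89, ALOX5 between -1.28 and -0.91 and TBXAS1 between -2.23 and -1.96. The sign of ALOX15, PTGS1 and PTGS2, which were not called, turned with 1 array left out.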
